A study of Rattus norvegicus with 6 samples.

Results

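The cell cycle and DNA replication genes described here were 41 genes chosen by symbol, from the cyclins and their kinases to the replication fork and the mitotic spindle. A gene was represented by its brightest probe set over the 6 arrays, a probe set being the group of array probes that reads 1 transcript. Of the 41 genes, 39 were measured in this way, out of 14217 genes with a probe set of a single symbol. Cdc6, which loads the replicative helicase, had no probe set in the annotation used, and Rrm2, a subunit of ribonucleotide reductase, had only probe sets that carry 2 gene symbols. The list was compared gene by gene with Cks2, a small protein that binds cyclin-dependent kinases.

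The cells were heart muscle cells from newborn Wistar rats of 1 to 2 days, freed from fibroblasts on a Percoll gradient and cultured. The 3 groups of 2 arrays were untreated control cells, cells given the α1-adrenergic agonist phenylephrine at 50 µmol/l, and cells under biaxial stretch to 112% for 24 h. Before stretch, these cells were plated for 36 h on silicone coated with collagen and then starved of serum for 24 h. For the control and phenylephrine cells the sources used here give neither the growth surface, nor the time without serum, nor the duration of treatment, so differences in these cannot be told apart from the stimulus. RNA of several cell preparations was pooled, and the labels do not state whether a group's arrays represent separate cultures. Every p-value here thus reflects array-to-array spread alone, which may be technical.

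A dividing cell passes from G1, where D-type cyclins with CDK4 and CDK6 inactivate the retinoblastoma protein and release E2F factors, into DNA replication and then mitosis, which is driven by CDK1 with cyclins A and B. Cks1 and Cks2 bind the kinase subunit of these complexes and help them act on substrates that already carry phosphate. Heart muscle cells of the rat leave the cycle soon after birth, and cultures of newborn hearts also hold other cells that divide. In bulk RNA a change in the number of cells of a type and a change in RNA per cell cannot be told apart.

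The promoters of Cks2 and its paralog Cks1b are shown because these 2 genes encode near relatives and are compared throughout. The windows are those of RefSeq on GRCr8, from 250 bases before the start site to 50 after it, read 5′ to 3′ along the gene. Cks2 lies at chr17:13727470-13727769 on the minus strand and Cks1b at chr2:177135284-177135583 on the minus strand. Capitals mark matches to CCAAT, the site of NF-Y, or to the cell cycle homology region CHR (TTTGAA or TTCGAA), each on either strand. A match is a description of letters and not a bound site.
Cks2: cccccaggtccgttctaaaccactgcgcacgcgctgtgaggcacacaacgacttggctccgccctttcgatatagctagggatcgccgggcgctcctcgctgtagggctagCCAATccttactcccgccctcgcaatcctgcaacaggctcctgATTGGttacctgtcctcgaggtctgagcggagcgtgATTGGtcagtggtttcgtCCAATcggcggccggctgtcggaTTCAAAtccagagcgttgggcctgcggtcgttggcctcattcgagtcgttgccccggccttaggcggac
Cks1b: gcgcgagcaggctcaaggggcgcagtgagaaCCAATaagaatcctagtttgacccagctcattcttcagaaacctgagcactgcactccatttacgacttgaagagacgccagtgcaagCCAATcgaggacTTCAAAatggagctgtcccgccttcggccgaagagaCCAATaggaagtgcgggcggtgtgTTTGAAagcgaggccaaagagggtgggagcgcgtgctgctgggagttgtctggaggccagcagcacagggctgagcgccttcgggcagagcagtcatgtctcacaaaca

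The Cks2 window held 4 CCAAT matches and 1 CHR match, and the Cks1b window held 3 and 2. Neither held an E2F consensus (TTTGGCGC, TTTCGCGC, TTTCCCGC or TTTGCCGC on either strand). Promoter windows were found for 30 of the 39 measured genes. CCAAT was present in 21 of the 30, or 70.0%, against 37.7% of 27457 promoters of the same length. CHR letters were present in 15, or 50.0% against 19.5%, and the E2F consensus in 8, or 26.7% against 2.25%. No motif word contains another, and a minus-strand match is printed as its reverse complement (ATTGG or TTCAAA).

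Cks2 rose with stretch and stood apart from the other cycle genes. Its log2 signal was 8.89 and 8.92 in control cells, 8.93 and 8.59 with phenylephrine, and 10.71 and 10.73 with stretch (probe set 1373823_at). Both stretch arrays thus lay far above the other 4, which overlapped one another. The rise over control was 3.53-fold (1.82 ± 0.12 log2, SE of limma; n = 2 arrays per group; adjusted p = 0.00136), and that over phenylephrine 3.88-fold (1.96 ± 0.12; limma adjusted p = 0.000926). With phenylephrine the difference from control was -0.14 ± 0.12 (limma adjusted p = 0.657), with a 95% interval from -0.42 to 0.14. Its rise was the 6th largest among all 14217 genes for stretch against control and the 5th largest against phenylephrine, given as a description because the gene was singled out with this known. Cks2 has a single probe set with its symbol, so no other probe set reads it here.

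The stretch rise of Cks2 over control was 1.80 to 1.83 log2 whichever array was left out. Phenylephrine replicate 2 stood apart from the other arrays in its hybridization controls, with a median of 9.31 log2 against 10.13 to 10.37, and in the width of its distribution, with an interquartile range of 1.70 log2 against 1.80 to 1.92. Cks2 had its lowest value on that array. Without it the difference of stretch from phenylephrine was 1.79 log2, and that of phenylephrine from control was 0.03 (limma adjusted p = 0.912).

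**Figure D1:**
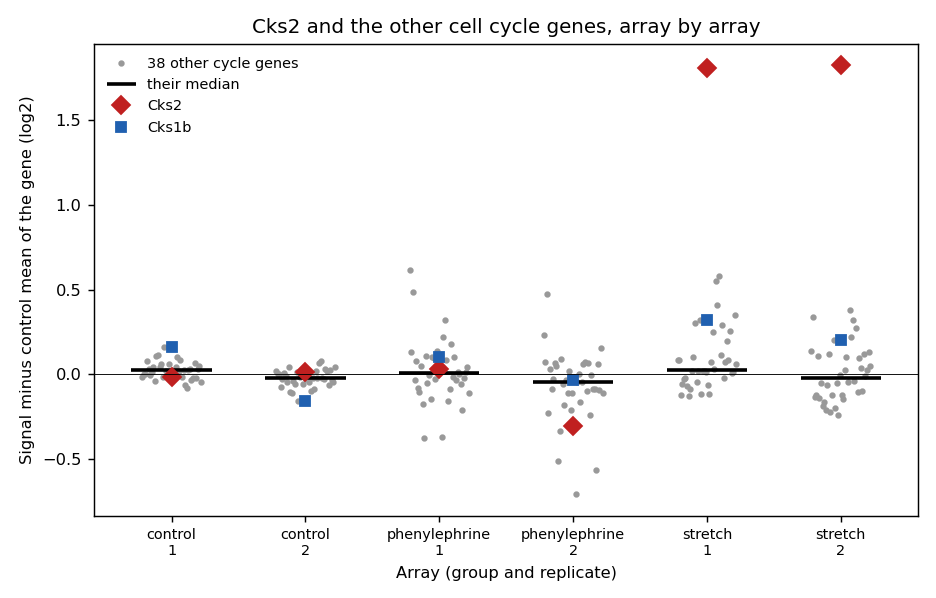
Each point is 1 gene on 1 array, as log2 signal minus the mean of that gene over the control arrays; arrays are on the horizontal axis by group and replicate. Cks2 (red diamonds) lies at 1.81 and 1.83 on the stretch arrays, above every other cycle gene (grey, highest 0.58), while the median of the 38 others (black line) stays between -0.04 and 0.02 on all 6 arrays; Cks1b is shown as blue squares.

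Taken as 1 set, the other 38 genes showed no shift of their median with stretch. Their median difference from control was 0.01 log2, against 0.00 over all 14217 genes, with 20 above and 18 below 0. They ran from -0.16 for Mcm2 to 0.47 for Bub1. The median size of the difference, sign aside, was 0.10, against 0.06 over all genes. Signs differed by role: the 4 spindle checkpoint genes lay above 0 (median 0.38) and the 5 genes of the G1 to S switch below 0. Of 7 origin and fork genes 2 lay above 0 and 5 below, and of 8 mitotic kinases, motors and chromosome proteins 5 lay above and 3 below. In limma 1 of the 39 genes passed for stretch against control, Cks2, against a background of 0.521% of all genes (0.345% of all probe sets). The share of all genes was 0.457% for rises and 0.0633% for falls. Without Cks2 0 of 38 passed. At an unadjusted p under 0.05 there were 6 of 39, Cks2, Bub1, Mad2l1, Bub1b, Aurka and Ccnb1, against 7.24% of all genes. The arrays of both groups did not overlap for 14 genes that were higher with stretch and 8 that were lower, against 21.6% and 19.4% of all genes. In an alternative fit with the replicate number as a block, 5 of the 39 passed: Aurka, Bub1, Bub1b, Cks2 and Mad2l1. That fit called 3.31% of all probe sets, and the labels do not say that the numbers pair samples.

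For each of the 38 genes the 95% interval of the stretch difference ended below 1.53 log2, the lower limit for Cks2. The highest upper limit among them was 0.67, that of Mad2l1, so the intervals of all 38 lay within 1 log2 of 0. Measured array by array, Cks2 minus the median of the others was 0.38 ± 0.02 in control, 0.25 ± 0.24 with phenylephrine and 2.17 ± 0.10 with stretch (mean ± SD, n = 2). The difference of stretch from control was 1.78 log2 (two-sided exact permutation p = 0.333, the smallest that 2 against 2 arrays allow). Stretch against the other 4 arrays gave 1.85 (two-sided exact permutation p = 0.0667, the smallest for that split). Against phenylephrine it was 1.92 (exact permutation p = 0.333, again the smallest possible), 2.08 without phenylephrine replicate 1 and 1.75 without replicate 2. Cks2 was singled out with its stretch rise known, so these permutation p-values are a description and no independent test.

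Cks1b, the paralog of Cks2, did not pass in any comparison. Its signal was 11.45 and 11.13 on the control arrays, 11.39 and 11.25 with phenylephrine, and 11.61 and 11.49 with stretch. The stretch arrays were the highest by a small margin. The difference of stretch from control was 0.26 ± 0.14 log2 (limma adjusted p = 1; 95% interval -0.07 to 0.59), whose upper limit lies below the lower limit of Cks2. It was 0.42 without control replicate 1 and 0.10 without control replicate 2. Its other probe set (1376346_at) gave 0.14. The Cks2 minus Cks1b difference grew by 1.56 log2 from control to stretch (exact permutation p = 0.333) and changed by -0.17 from control to phenylephrine (exact permutation p = 0.667). These p-values too are a description, for the same reason.

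**Figure D2:**
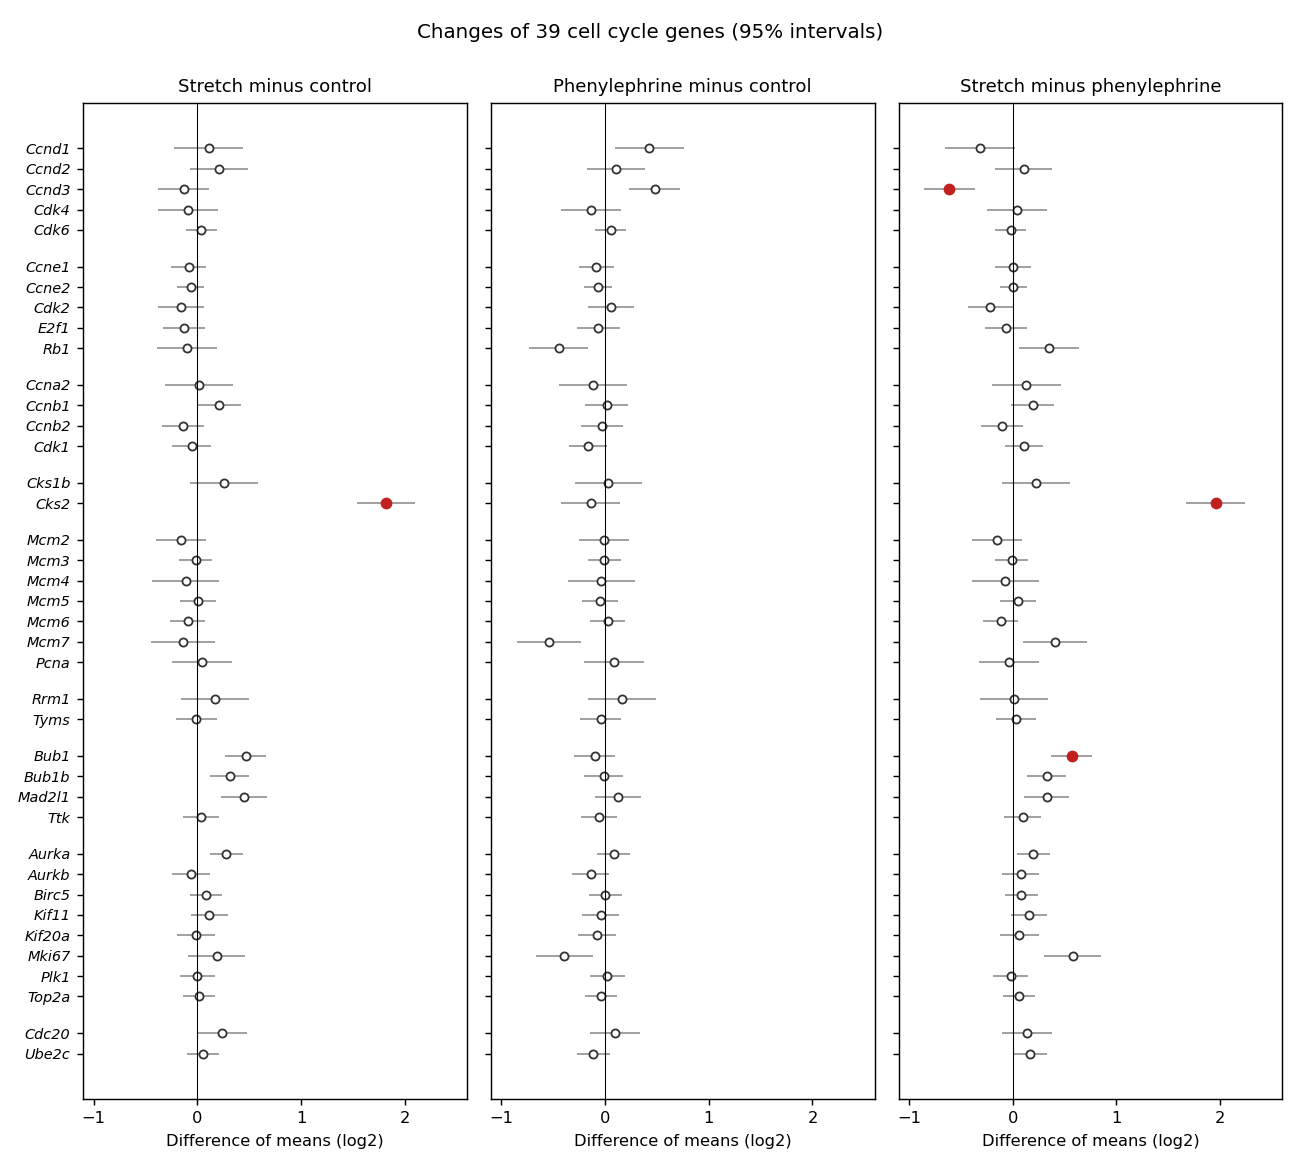
Differences of group means in log2 for the 39 measured cycle genes, grouped by role from G1 cyclins at the top to the anaphase-promoting complex at the bottom, with 95% intervals of the limma fit as lines. Red points passed adjusted p 0.05 and open points did not: Cks2 in the left and right panels, Bub1 (0.57) and Ccnd3 (-0.61) in the right one, and none in the middle one.

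Next to Cks2, the members with the largest stretch values belonged to the spindle checkpoint, which holds back the separation of chromosomes until all are attached. Bub1, a checkpoint kinase, was at 7.76 and 7.58 on the control arrays, 7.51 and 7.63 with phenylephrine and 8.22 and 8.05 with stretch. Its stretch arrays did not overlap the other 4. It was higher with stretch than with phenylephrine by 0.57 ± 0.09 log2, or 1.48-fold (limma adjusted p = 0.0274), and 0.47 ± 0.09 above control without passing (limma adjusted p = 0.114). The call against phenylephrine was lost when 1 array of either group was left out. The adjusted p was then 0.0828 without phenylephrine replicate 1, 0.075 without phenylephrine replicate 2, 0.162 without stretch replicate 1 and 0.0642 without stretch replicate 2, with differences of 0.48 to 0.65.

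Mad2l1, which encodes the Mad2 inhibitor of the anaphase-promoting complex, was at 8.18 and 8.14 in control, 8.34 and 8.23 with phenylephrine and 8.74 and 8.48 with stretch. The difference from control was 0.45 ± 0.10 log2 (limma adjusted p = 0.171), and its 3 probe sets gave 0.26 to 0.45. Bub1b, which encodes BubR1, was at 7.63 and 7.67 in control, 7.56 and 7.71 with phenylephrine and 8.06 and 7.87 with stretch. It had 0.31 ± 0.08 (limma adjusted p = 0.353). In both genes the stretch arrays lay above the other 4, and neither passed. With the replicate number as a block, Bub1, Mad2l1 and Bub1b passed for stretch against control. Ttk, the checkpoint kinase Mps1, was among the dimmest members and had 0.04 ± 0.08, with overlapping arrays. Of the 4 checkpoint genes, 0 passed for stretch against control, where the background is 0.521% of all genes. Against phenylephrine 1 passed, where the background is 1.84% of all genes.

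In all, both stretch arrays lay above the other 4 for 11 of the 39 genes, or 28.2%, against 7.66% of all genes. These were Cks2, Cks1b, Bub1, Bub1b, Mad2l1, Ccnb1, Aurka, Birc5, Kif11, Mki67 and Ube2c. Apart from Cks2 their differences from control ran from 0.06 to 0.47 log2. Both stretch arrays lay below the other 4 for 4 genes, or 10.3% against 4.8%: Ccnd3, Cdk2, Mcm2 and Mcm6. The stretch differences of those 4 from control lay between -0.16 and -0.09 and did not pass. Aurka, the kinase of the spindle poles, was at 7.83 and 7.99 in control, 8.01 and 7.98 with phenylephrine and 8.20 and 8.18 with stretch (0.28 ± 0.07; limma adjusted p = 0.312).

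**Figure D3:**
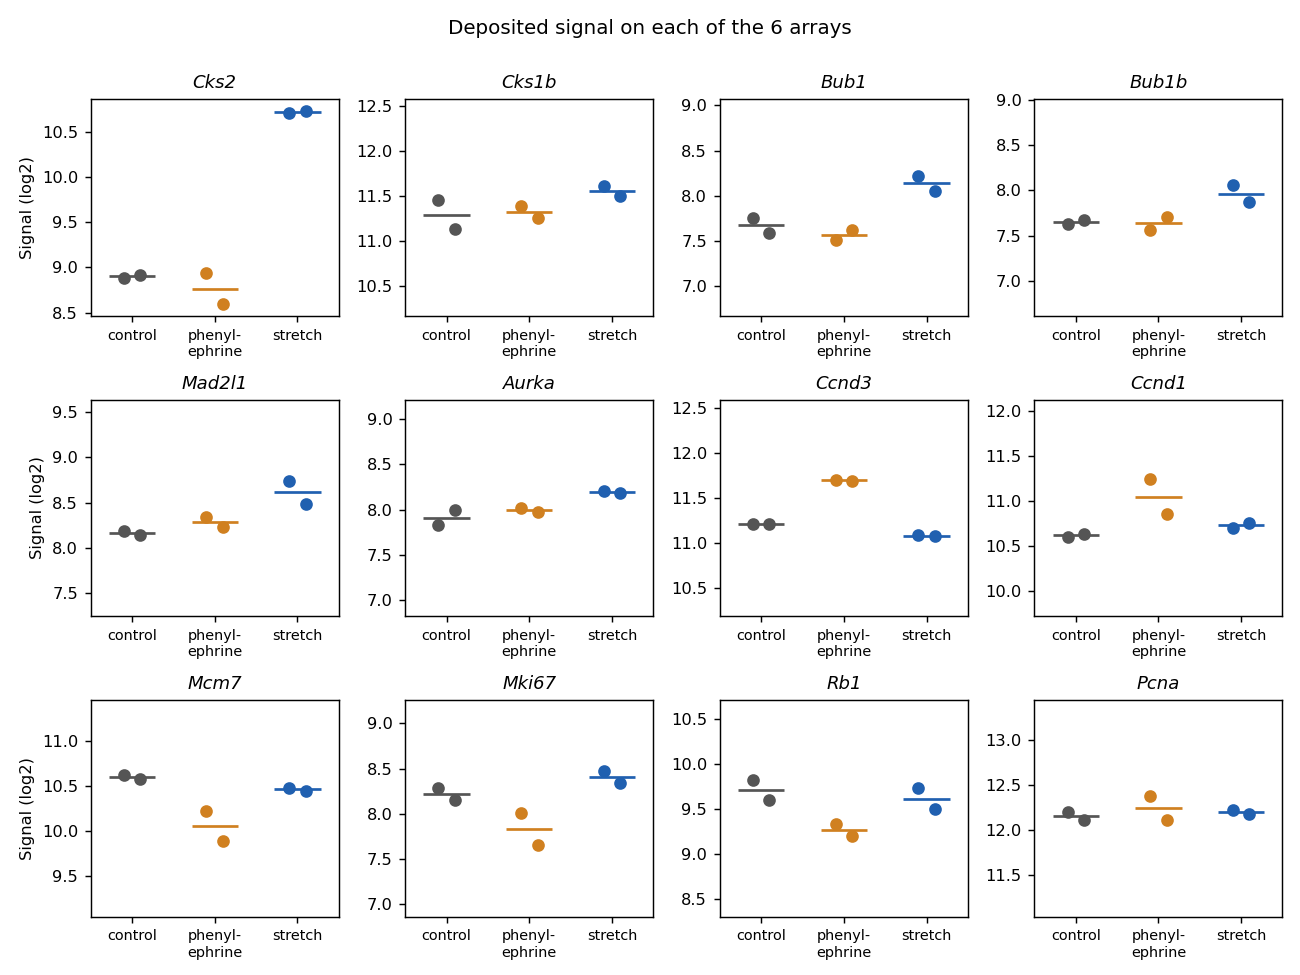
Log2 signal of 12 cycle genes on each array, with control in grey, phenylephrine in orange and stretch in blue; points are arrays, lines are group means, and all panels span the same width in log2. Cks2 is the panel with the widest gap, while Bub1, Bub1b, Mad2l1 and Aurka show stretch arrays slightly above the rest, Ccnd3 shows phenylephrine arrays at 11.70 and 11.69 above the others, and Pcna shows overlapping groups.

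The other mitotic genes had small stretch differences. Birc5, the chromosomal passenger protein survivin, differed from control by 0.09 ± 0.07 with stretch and by 0.00 ± 0.07 with phenylephrine. Kif11, the spindle motor Eg5, had 0.12 ± 0.08 with stretch. Values for Aurkb, the passenger kinase (-0.06), Plk1, the polo-like kinase (0.00), Kif20a, a motor of the late spindle (-0.01), and Top2a, topoisomerase II (0.02), were smaller still. Of the genes that act at the anaphase-promoting complex, the activator Cdc20 had 0.24 ± 0.10 (limma adjusted p = 0.914) and the ubiquitin-conjugating enzyme Ube2c 0.06 ± 0.07. The 5 probe sets of Cdc20 ranged from -0.04 to 0.24 so they differed in sign.

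Among the cyclins of S phase and mitosis none passed with stretch, against 0.521% of all genes. Ccnb1, cyclin B1, was at 8.39 and 8.30 in control, 8.29 and 8.44 with phenylephrine and 8.65 and 8.46 with stretch. The stretch arrays were highest, by 0.21 ± 0.09 over control (limma adjusted p = 0.882). Ccnb2, cyclin B2, had -0.13 ± 0.09, Ccna2, cyclin A2, 0.02 ± 0.14, and their kinase Cdk1 -0.05 ± 0.08. Cks2 thus rose on arrays where Cdk1, a kinase to which Cks2 binds, did not pass in either direction.

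No gene of DNA replication passed with stretch. The helicase subunits Mcm2 to Mcm7 and the sliding clamp Pcna, which tethers the polymerase, had stretch differences from -0.16 (Mcm2) to 0.05 (Pcna). Of these 7, 0 passed in any comparison. The share of all genes called was 0.521% for stretch against control and 4.77% for phenylephrine against control. For stretch against phenylephrine it was 1.84%. Pcna was at 12.20 and 12.11 in control, 12.38 and 12.11 with phenylephrine and 12.23 and 12.18 with stretch, so that all groups overlapped. Mcm2 was at 9.54 and 9.51 in control, 9.62 and 9.41 with phenylephrine and 9.41 and 9.32 with stretch. Among the enzymes of nucleotide supply, Rrm1, the large subunit of ribonucleotide reductase, had 0.17 ± 0.14 and Tyms, thymidylate synthase, -0.01 ± 0.08. The 2 probe sets that carry the Rrm2 symbol beside another gave 0.03 and 0.11.

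Of the 5 genes of the G1 to S switch none passed with stretch, against 0.521% of all genes, and all 5 differences lay below 0. Cdk2, the kinase of cyclin E, had -0.16 ± 0.09, E2f1 -0.13 ± 0.09, Rb1, the retinoblastoma gene, -0.10 ± 0.12, Ccne1 -0.08 ± 0.07 and Ccne2 -0.06 ± 0.06. Cdk2 was at 9.77 and 9.68 in control, 9.77 and 9.79 with phenylephrine and 9.60 and 9.54 with stretch. Rb1 changed sign with 1 array left out, to 0.01 without control replicate 1 and 0.02 without stretch replicate 2.

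For phenylephrine against control 0 of the 39 genes passed in limma, against 4.77% of all genes (2.41% higher and 2.36% lower) and 3.6% of all probe sets. Ccnd3, Ccnd1, Mcm7, Rb1 and Mki67, 5 of the 39, had an unadjusted p under 0.05, against 19.4% of all genes. The arrays did not overlap for 6 genes that were higher and 9 that were lower, against 22% and 24.9% of all genes. Without phenylephrine replicate 1 the group is replicate 2 alone, the array that stood apart in its hybridization controls. Mcm7 then differed from control by -0.71 and Mki67 by -0.57 log2. Without phenylephrine replicate 2 the difference of Ccnd1 was 0.62. The median of the 38 genes other than Cks2 was -0.04 log2, against 0.00 over all genes. Both phenylephrine arrays lay below the other 4 for 5 genes, or 12.8% against 16.1% of all genes: Cdk1, Mcm7, Mki67, Rb1 and Ube2c. They lay above for 3, or 7.69% against 12%: Ccnd1, Ccnd3 and Cdk2.

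Ccnd3, cyclin D3, was the member with the highest phenylephrine value. It was at 11.22 and 11.21 in control, 11.70 and 11.69 with phenylephrine and 11.09 and 11.08 with stretch. The arrays of each group differed by only 0.01, and the 3 groups did not overlap. It was 0.48 ± 0.11 log2 above control with phenylephrine, just short of the threshold (limma adjusted p = 0.0541), and the difference passed in 6 of the 13 alternative fits. Against phenylephrine it was lower with stretch by 1.53-fold (-0.61 ± 0.11; limma adjusted p = 0.0402).

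That call of Ccnd3 ended when any of the 6 arrays was left out. Its adjusted p was 0.0559 and 0.0714 without phenylephrine replicates 1 and 2, 0.282 and 0.332 without stretch replicates 1 and 2, and 0.121 without either control replicate. Its difference stayed between -0.62 and -0.61 in these fits. Ccnd1, cyclin D1, was at 10.61 and 10.64 in control, 11.24 and 10.86 with phenylephrine and 10.71 and 10.76 with stretch. The phenylephrine difference was 0.43 ± 0.14 (limma adjusted p = 0.186), and its 3 probe sets gave 0.18 to 0.43. Ccnd2, cyclin D2, with 0.10 ± 0.12, and the kinases Cdk4 (-0.13 ± 0.12) and Cdk6 (0.05 ± 0.07) were close to control. With stretch these last 3 had 0.21, -0.09 and 0.04.

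On the low side with phenylephrine, Mcm7 was at 10.62 and 10.58 in control, 10.23 and 9.89 with phenylephrine and 10.48 and 10.45 with stretch. The difference was -0.54 ± 0.13 log2 (limma adjusted p = 0.0766), while Mcm2 to Mcm6 lay between -0.05 and 0.03. Rb1 was at 9.82 and 9.60 in control, 9.33 and 9.20 with phenylephrine and 9.73 and 9.50 with stretch, a phenylephrine difference of -0.45 ± 0.12 (limma adjusted p = 0.108). Mki67, which encodes the proliferation marker Ki-67, was at 8.28 and 8.15 in control, 8.00 and 7.65 with phenylephrine and 8.47 and 8.34 with stretch. Its phenylephrine difference was -0.39 ± 0.12 (limma adjusted p = 0.137). Mcm7, Rb1, Mki67 and Cks2, among others, had their lowest values on phenylephrine replicate 2. Without it Mcm7 had -0.37 and Mki67 -0.21 against control.

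In the direct comparison of stretch with phenylephrine 3 of the 39 genes passed, Cks2 and Bub1 higher and Ccnd3 lower, against 1.84% of all genes (0.999% higher and 0.837% lower) and 1.33% of all probe sets. At an unadjusted p under 0.05 there were 10, against 14.6% of all genes. The arrays did not overlap for 14 genes higher with stretch and 5 lower, against 23.8% and 17.7%. Mki67 was 0.58 ± 0.12 log2 higher with stretch and just missed the threshold (limma adjusted p = 0.0692). With phenylephrine replicate 2, stretch replicate 1 or stretch replicate 2 left out the count was 1, Cks2 alone. The median of the 38 other genes was 0.06, against 0.01 over all genes, with 26 above and 12 below 0.

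The 5 members whose signal followed that of Cks2 most closely over the 6 arrays were Bub1 (Pearson r = 0.93), Birc5 (0.90), Aurka (0.88), Mad2l1 (0.87) and Bub1b (0.87). Because the Cks2 values fall into 2 clusters, stretch and the rest, these coefficients largely restate the difference between stretch and the other arrays. Cdk2 was the most opposed (r = -0.93). Their own stretch differences from control were 0.09 to 0.47 log2, against 1.82 for Cks2.

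Genes of the same pathway outside the list were counted from further lists, also drawn up with earlier results known. Among 43 measured genes of mitosis, 3 rose with stretch over control and 0 fell, against 0.457% and 0.0633% of all genes. At an unadjusted p under 0.05 there were 8, against 7.24% of all genes. Zwint, a kinetochore protein, was at 11.86 and 11.81 in control, 12.28 and 12.01 with phenylephrine and 12.70 and 12.69 with stretch (0.86 ± 0.12; limma adjusted p = 0.0437). Smc4, a condensin subunit, rose by 0.57 ± 0.08 (limma adjusted p = 0.0386) and Cdca8, borealin of the chromosomal passenger complex, by 0.42 ± 0.06 (limma adjusted p = 0.0409). The count was 0 whenever 1 control or 1 stretch array was left out. The median of the 43 was 0.03 log2.

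Against phenylephrine 3 of these 43 mitosis genes were higher with stretch, against 0.999% of all genes: Smc4 (0.79 ± 0.08; limma adjusted p = 0.00585), Cdca8 (0.45 ± 0.06; adjusted p = 0.0174) and the phosphatase gene Cdc25b (0.40 ± 0.07; adjusted p = 0.038). The count was 1, Smc4, without phenylephrine replicate 2 or stretch replicate 2, and 0 without stretch replicate 1. Among 37 further genes of replication 0 passed with stretch over control in limma, against 0.521% of all genes. At an unadjusted p under 0.05 there were 3, against 7.24% of all genes. With phenylephrine 2 of the 37 rose, against 2.41% of all genes: the licensing inhibitor geminin (Gmnn, 0.53 ± 0.11; limma adjusted p = 0.037) and the flap endonuclease Fen1 (0.37 ± 0.08; limma adjusted p = 0.0427). That count was 0 without either control array or phenylephrine replicate 1, and 1 without phenylephrine replicate 2 (Orc6) or either stretch array (Gmnn). A list of 14 other genes held E2F and pocket protein family members and genes listed with them, such as Lin9, Lin54 and Mybl2. Of these, 0 passed for stretch against control, against 0.521% of all genes. At an unadjusted p under 0.05 there was 1, Lin54, against 7.24% of all genes. Lin54 was at 8.89 and 8.69 in control, 8.96 and 8.60 with phenylephrine and 9.82 and 9.38 with stretch (0.81 ± 0.17 for stretch; limma adjusted p = 0.172). With stretch 6 of the 14 lay above 0 and 8 below.

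Of 7 CDK inhibitor genes 0 passed for stretch against control in limma, against 0.521% of all genes. At an unadjusted p under 0.05 there were 2, against 7.24% of all genes. Cdkn1a, which encodes p21, was at 11.21 and 11.36 in control, 11.79 and 11.50 with phenylephrine and 11.72 and 11.87 with stretch (0.51 ± 0.14 for stretch; limma adjusted p = 0.41). For Cdkn1a both treatments lay above control. The other inhibitors went the other way with stretch: 1 of the 7, Cdkn1a, lay above 0 and 6 below, with a median of -0.11 log2. With phenylephrine 2 lay above 0 and 5 below.

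**Figure D4:**
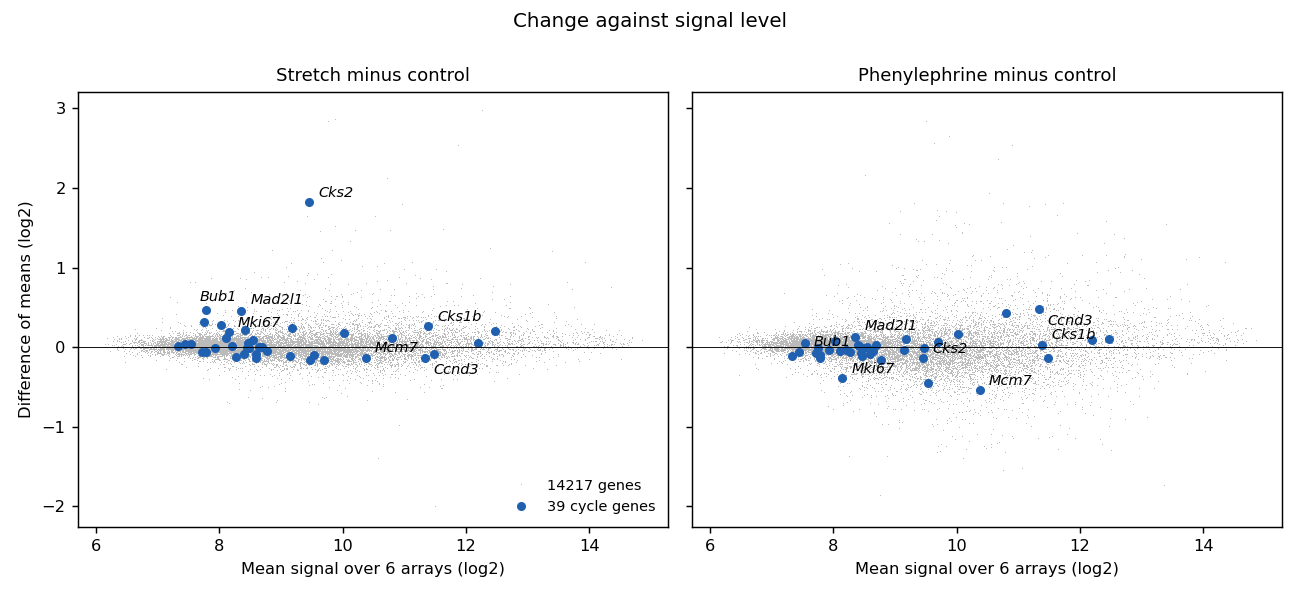
Difference from control in log2 against the mean log2 signal over 6 arrays, for 14217 genes (grey) and the 39 measured cycle genes (blue), with stretch on the left and phenylephrine on the right. Cks2 stands at 1.82 for stretch and at -0.14 for phenylephrine, and the next highest cycle gene for stretch is Bub1 at 0.47.

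Signal level limits what these arrays can show. No detection calls were used, and 13 of the 39 cycle genes had a mean below 8.31 log2, the median over all probe sets, where folds on such arrays are compressed. They were Ccna2, Ccne2, Cdk6, E2f1, Ttk, Bub1, Bub1b, Aurka, Aurkb, Kif11, Top2a, Tyms and Mki67.

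Markers of the cell types in the culture were read on the same arrays. Of the markers of the labelled cell type, Tnnt2, cardiac troponin T, lay between 14.48 and 14.81 on all arrays. The summed signal of 11 cardiomyocyte markers was 17.58 to 17.68 log2 in control, 17.72 to 17.86 with phenylephrine and 17.52 to 17.74 with stretch. That of 12 fibroblast markers was 15.44 to 15.47, 14.95 to 15.01 and 15.17 to 15.22, so both treatments lay below control. Of the fibroblast markers 4 fell with phenylephrine (Col3a1, Pdgfra, Postn and Dpt) and 0 of 12 changed with stretch in limma (4 at an unadjusted p under 0.05; 11 below 0). For these and the following marker lists, the share of all genes called with phenylephrine was 2.36% lower and 2.41% higher, and that called lower with stretch was 0.0633%. At an unadjusted p under 0.05 the share of all genes was 7.24% for stretch against control. Endothelial markers (8 measured) summed to 11.99 to 12.00 in control, 11.64 to 11.68 with phenylephrine and 11.89 with stretch. Of these, Kdr and Emcn fell with phenylephrine. Macrophage markers (10 measured) summed to 13.26 to 13.29, 12.91 to 13.00 and 13.23 to 13.25, and Cd68 fell with phenylephrine. Smooth muscle and pericyte markers (8 measured) summed to 12.78 to 12.87, 12.57 to 12.72 and 12.79 to 12.81. With phenylephrine Cspg4 and Mcam rose and Abcc9 fell. Red blood cell markers (3 of 6 measured) summed to 10.34 to 10.40, 10.29 to 10.42 and 10.24. The sums of fibroblast and endothelial markers were thus below control on the stretch arrays. Those of macrophage markers nearly touched control (13.25 against 13.26 at the closest), and those of red blood cells, also lower, rest on 3 markers. Smooth muscle and pericyte sums overlapped between stretch and control. The part of these cell types in the results for Cks2 and for the other cycle genes was not tested.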

How the data were processed

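Single-channel Affymetrix arrays were hybridized with amplified RNA of 6 samples. The authors deposited 1 log2 value per probe set and array. The scale was inferred from the values, and how probe sets were summarised and normalised is not given in the sources used here. Of 31099 probe sets, 57 array controls were left out and 31042 tested. Symbols came from the platform annotation of 2016, and all 39 measured members matched RefSeq by Entrez identifier.

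The 3 group means were estimated jointly from the 6 arrays by limma 3.58.1 (R 4.3.3, lmFit, eBayes with trend; 3 residual and 4.8 prior degrees of freedom). Tests were two-sided, Benjamini-Hochberg adjusted across all 31042 tested probe sets, and called at 0.05. Adjusted p-values and SE are from this fit. Quantities built from several genes were tested by exact permutation over arrays.

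The members and lists were chosen with earlier results of these data known. Named genes were Cks2, Cks1b, all members past the threshold and the largest value per role. The remaining members are given by value. Other lists name genes past the threshold, and Cdkn1a, Lin54, Tnnt2, Orc6 and the cell type markers were chosen after their values were seen.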

Additional observations from a re-analysis of the deposited data

How the results depend on the processing

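Cks2 kept its direction and passed in all 13 alternative fits for stretch against control (1.80 to 1.83 log2) and against phenylephrine (1.79 to 2.13). With 1 array left out, the Cks2 difference of phenylephrine from control ran from -0.31 to 0.032. For Cks2 minus the median of the others, that comparison ran from -0.30 to 0.033 and stretch against phenylephrine from 1.75 to 2.08. The median of the other members for stretch against phenylephrine ran from 0.032 to 0.118.

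The count of changed cycle genes for phenylephrine against control, 0 as reported, was 2 with the mean of all probe sets of a gene, 1 without the mean-variance trend, 1 with dim probe sets removed, 1 with a robust prior, 4 with quantile normalization, and 0 to 2 with 1 array left out. For stretch against phenylephrine it was 5 with quantile normalization in place of 3, and 1 to 2 with 1 array left out. Quantile normalization called 8.99% of all probe sets for phenylephrine and 4.92% for stretch against phenylephrine.

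With the replicate number as a replicate block, the count was 5 for stretch against control (Aurka, Bub1, Bub1b, Cks2 and Mad2l1), 5 for phenylephrine against control and 8 for stretch against phenylephrine. The further mitosis genes then counted 7 for stretch against control and 13 against phenylephrine. That fit called 3.31%, 17.3% and 12.0% of all probe sets. Deviations of equally numbered arrays from their group means correlated at 0.49 to 0.67 over probe sets, but the labels do not say that the numbers pair samples. With 2 arrays per group, and an arm of 1 array when an array is left out, the lone array is assumed to vary like the others. The number of arrays and the signal over background of dim probe sets limit precision. Of the other values for single genes, 769 kept their direction and side of the threshold, 21 without a call changed sign, 32 newly passed and 54 no longer passed. Of the counts for the further lists, 111 stayed within 1.5 times the reported count and 45 did not. Alternatives for the further pathway lists were added after seeing the data.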
